A study of Rattus norvegicus with 9 samples.

Results

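The genes described here are the proteasome and immunoproteasome genes of rat microvascular smooth muscle cells. Members were the rows of the expression table whose symbol begins with Psma, Psmb, Psmc, Psmd, Psme, Psmf or Psmg and a number, in any case, and whose mean level over the 9 libraries was at least 1 FPKM (a level scaled to transcript length and to library size). Of 26407 rows, 52 had such a symbol, and 49 of these reached the minimum and were tested among 11376 genes. The rows just inside the minimum were Psme2 (mean 1.01 FPKM) and Psmd10 (3.13 FPKM). The rows outside it were Psmb11, the thymic beta subunit (mean 0.0358 FPKM), Psma8, the testis alpha subunit (listed at 0 in all 9 libraries), and a second row named Psme3 (ENSRNOG00000026142, listed at 0 in all 9).

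RNA was sequenced from wild-type S31 cells, a primary vascular smooth muscle culture that was taken from small heart vessels of male Wistar Kyoto rats. The series title asks whether these cells change phenotype differently under platelet-derived growth factor (PDGF) and insulin-like growth factor 1 (IGF-1). All cells, controls included, were starved of serum for 48 h, and treated cells then received 25 ng/ml of a growth factor in serum-free medium. The labels conflict on which factor a treated set received, so the sets are named by their data columns. The PDGF-NS columns are assigned by the sample records to recombinant human IGF-1 for 24 h, the IGF-NS columns to recombinant rat PDGF-BB for 48 h, and the control columns, named LH-NS, to medium without growth factor for 24 h. Growth factor and harvest time cannot be told apart for the IGF-NS columns. Each set held 3 libraries. No source states that these are separate cultures, and the p-values therefore reflect the spread among these libraries alone, which could be technical.

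The proteasome degrades proteins that carry ubiquitin chains. Its barrel-shaped 20S core is built of rings of alpha subunits, which gate the entrance, and rings of beta subunits, of which Psmb5, Psmb6 and Psmb7 cut the substrate. The 19S regulatory particle binds ubiquitin, removes it and feeds the unfolded protein into the core with a ring of ATPases. In cells exposed to interferon, the cutting subunits are replaced by Psmb8, Psmb9 and Psmb10 in newly made cores, which gives the immunoproteasome known for making peptides for MHC class I molecules. Activators such as PA28 (Psme1 with Psme2) and PA200 (Psme4) bind the same ends of the core as the 19S particle does.

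Promoters of the 3 immune subunits and of Psme2 are shown because these are among the member genes known as interferon targets, and their RNA levels did not move alike. The sequences are from RefSeq on build GRCr8, run from 250 bases before to 50 bases after the annotated start, and are written in the direction of the gene. Capitals mark the core of the interferon-stimulated response element, which is GAAA, any 2 bases and GAAA, and the CCAAT box, CCAAT, on either strand.
Psmb8, GRCr8 chr20:4656982-4657281, minus strand: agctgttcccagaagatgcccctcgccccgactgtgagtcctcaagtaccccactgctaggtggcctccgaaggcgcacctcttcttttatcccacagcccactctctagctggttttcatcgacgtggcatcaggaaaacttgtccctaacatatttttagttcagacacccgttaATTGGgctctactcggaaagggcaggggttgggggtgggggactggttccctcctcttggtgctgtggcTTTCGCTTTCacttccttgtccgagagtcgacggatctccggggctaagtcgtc
Psmb9, GRCr8 chr20:4668750-4669049, plus strand: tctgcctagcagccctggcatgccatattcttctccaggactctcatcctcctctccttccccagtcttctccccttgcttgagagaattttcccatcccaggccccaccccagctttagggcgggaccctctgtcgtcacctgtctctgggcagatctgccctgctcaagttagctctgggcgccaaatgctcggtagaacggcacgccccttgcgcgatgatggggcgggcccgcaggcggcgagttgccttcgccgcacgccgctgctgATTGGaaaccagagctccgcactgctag
Psmb10, GRCr8 chr19:50743243-50743542, minus strand: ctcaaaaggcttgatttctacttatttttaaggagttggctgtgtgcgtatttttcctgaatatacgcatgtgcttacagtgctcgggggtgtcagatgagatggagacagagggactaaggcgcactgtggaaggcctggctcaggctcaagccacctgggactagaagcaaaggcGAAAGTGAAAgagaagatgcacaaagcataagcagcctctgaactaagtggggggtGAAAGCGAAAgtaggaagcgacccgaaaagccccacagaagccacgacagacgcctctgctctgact
Psme2, GRCr8 chr15:33052702-33053001, minus strand: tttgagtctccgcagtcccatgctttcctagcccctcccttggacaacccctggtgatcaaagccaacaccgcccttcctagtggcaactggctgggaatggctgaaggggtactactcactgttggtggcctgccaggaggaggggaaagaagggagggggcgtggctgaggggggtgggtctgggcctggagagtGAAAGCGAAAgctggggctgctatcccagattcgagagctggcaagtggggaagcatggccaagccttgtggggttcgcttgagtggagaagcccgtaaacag

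The response element core was present once in Psmb8 and in Psme2 and at 2 positions in Psmb10, and these letters were not in the Psmb9 window. The promoter of Psme1, the partner of Psme2, is not shown and did not hold these letters either. The CCAAT box was present in Psmb8 and Psmb9. In the RefSeq gene table of GRCr8, Psmb8 and Psmb9 lie on chromosome 20 with Tap1 between them. A promoter of this length was found for 43 member symbols. The response element core was in 7 of these 43 promoters (Psma4, Psmb3, Psmb8, Psmb10, Psmd7, Psme2 and Psmg4), against 3.92% of all 33469 rat promoters. The CCAAT box was in 22 of the 43, against 37.5% of all promoters. The antioxidant response element core, TGACNNNGC, was in 8 of the 43, against 12.1% of all. The interferon gamma activated site, TTCNNNGAA, was in 4 of the 43 (Psmb8, Psmc6, Psmd3 and Psmd7), against 8.87% of all. It is not capitalized in the Psmb8 sequence above. Both strands were searched in each case. Of 56 matches in member promoters, 1 CCAAT box overlapped an antioxidant response element core, in Psmb2. A match describes the letters and does not show that a factor binds there.

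Libraries summed to between 616765 and 748000 FPKM, and 11047 to 11348 genes reached 1 FPKM in a library. The steps between low values put the depth of the libraries at 0.659 to 1.33 times that of control library 1, and the number of reads is not given. Within sets, 2 libraries stood apart: on the first component of the within-set deviations (45.5% of the variance over 7611 genes), IGF-NS library 3 scored -16.9 and control library 1 scored -26.0. PDGF-NS library 3 was the highest of all 9 libraries in 21 of the 49 members, and control library 1 was the lowest in 31. The 8 smooth muscle markers were above 0 in every set, and their summed level was 1061 to 1215 FPKM in PDGF-NS, 1131 to 1239 FPKM in IGF-NS and 3855 to 5337 FPKM in control. By limma, 7 of them were called lower in PDGF-NS and 6 in IGF-NS, against 10.2% and 7.48% of all genes. Des was called higher in PDGF-NS (log2 fold change 1.30, limma adjusted p = 0.000365) and lower in IGF-NS (-0.95, limma adjusted p = 0.00368). The endothelial genes Cdh5, Kdr and Emcn were listed at 0 in every library, while Erg, from the same list of 9, was at 3.32 to 5.66 FPKM in PDGF-NS, 1.43 to 3.83 FPKM in IGF-NS and 7.32 to 8.76 FPKM in control and was called lower in IGF-NS (limma adjusted p = 0.00914). The list summed to 5.92 to 9.38 FPKM in PDGF-NS, 4.14 to 6.55 FPKM in IGF-NS and 10.8 to 11.1 FPKM in control. The summed level of 7 fibroblast markers, which cultured smooth muscle also expresses and of which Col1a1 makes up most, was 2772 to 3392 FPKM in PDGF-NS, 4771 to 6125 FPKM in IGF-NS and 2743 to 3988 FPKM in control. Of the 6 tested, 5 were called higher in PDGF-NS (Dpt, Lum, Pdgfra, Pi16 and Dcn) and 4 in IGF-NS, against 20.7% and 17.4% of all genes. The 7 cardiomyocyte markers summed to 1.35 to 4.55 FPKM in PDGF-NS, 8.19 to 19.6 FPKM in IGF-NS and 10.6 to 22.4 FPKM in control, and Tnnt2, the tested one, was called lower in PDGF-NS (-2.15, limma adjusted p = 0.00259). The part of these marker differences in the results on proteasome genes was not tested.

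**Figure D1:**
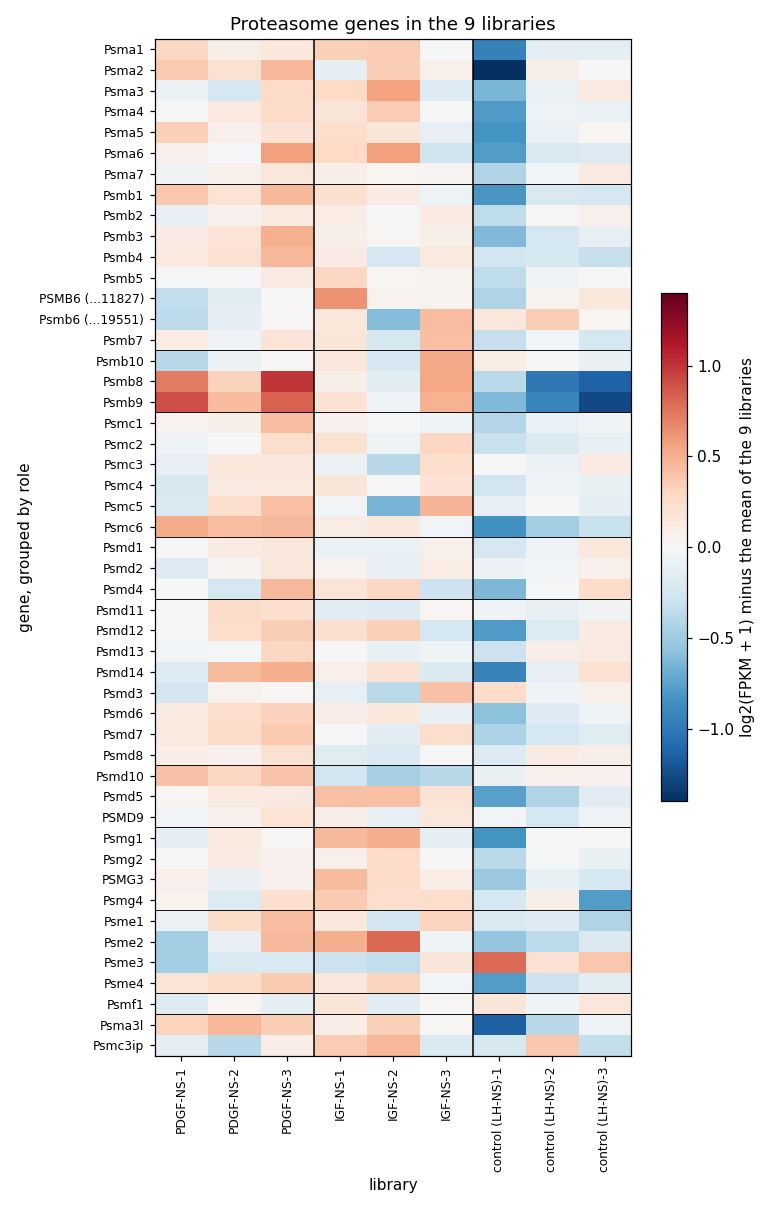
Level of each of the 49 members in each of the 9 libraries, as log2(FPKM + 1) minus the member's mean over the 9 libraries. Rows are genes grouped by role, columns are libraries (PDGF-NS, IGF-NS, control), and control library 1 is the lowest library in 31 of 49 rows.

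Most proteasome genes showed no difference from control that passed the test, and the members that did were the immune subunits Psmb8 and Psmb9, the ATPase Psmc6, the assembly chaperones Psmd5 and PSMG3, the activators Psme3 and Psme4, the core subunits Psmb1, Psmb3 and Psmb4, the lid subunits Psmd6 and Psmd7 and the row Psma3l. Differences were tested with limma on log2(FPKM + 1), in one fit of the 9 libraries, and a gene was called at a Benjamini-Hochberg adjusted p under 0.05 over all 11376 genes. In PDGF-NS against control, 11 of 49 members (22.4%) were called higher, against 20.7% of all genes tested, and 1 (2.04%) was called lower, against 10.2%. All calls of that comparison took in 31% of genes. In IGF-NS against control, 6 of 49 members (12.2%) were called higher, against 17.4% of all genes, and 1 (2.04%) was called lower, against 7.48%. Its calls took in 24.9% of all genes. The shares called higher were thus near or below those of all genes. Without PDGF-NS library 3, 5 members were called higher in PDGF-NS, in a fit that called 13.5% of all genes higher, and without IGF-NS library 1, 2 were called higher in IGF-NS, where 10.4% of all genes were. Under median ratio scaling, 9 members were called higher and 1 lower in PDGF-NS, with 15.5% of all genes called higher and 14.8% lower. The same scaling called 3 members higher and 2 lower in IGF-NS, with 9.99% of all genes called higher and 10.8% lower.

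Members called higher in both comparisons were Psmb8, Psmb9, Psmc6, Psmd5 and Psme4, and Psme3 was called lower in both. The 2 comparisons share their control libraries. Of the 49 members, 35 were called in none of the 3 comparisons. In PDGF-NS, all 3 libraries lay above all 3 control libraries for 23 members (46.9%), against 31.3% of all genes, and below them for 2 members, against 17.3%. In IGF-NS, this held for 19 members (38.8%) above, against 27.5% of all genes, and for 2 below, against 11.6%. The median member log2 fold change was 0.29 in PDGF-NS against control, with a median of 0.13 over all genes tested. In IGF-NS it was 0.31, with 0.15 over all genes. Scaling the libraries by their median ratio moved the median of all genes to 0.01 in both comparisons and left the members 0.15 above it in each. Without control library 1, the member median exceeded that of all genes by 0.10 in PDGF-NS and by 0.04 in IGF-NS, against 0.16 in each with all libraries.

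Summed over the 49 members, the level was 3049, 3218 and 3581 FPKM in PDGF-NS, 3258, 2961 and 3184 FPKM in IGF-NS and 2337, 2766 and 2807 FPKM in control. Neither treated set overlapped with control. As a share of all FPKM in the library, the members took 0.460% ± 0.0178 in PDGF-NS, 0.482% ± 0.0113 in IGF-NS and 0.408% ± 0.0343 in control (SD, n = 3 each). In bulk RNA, more cells that express a gene and more RNA of it per cell cannot be told apart.

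**Figure D2:**
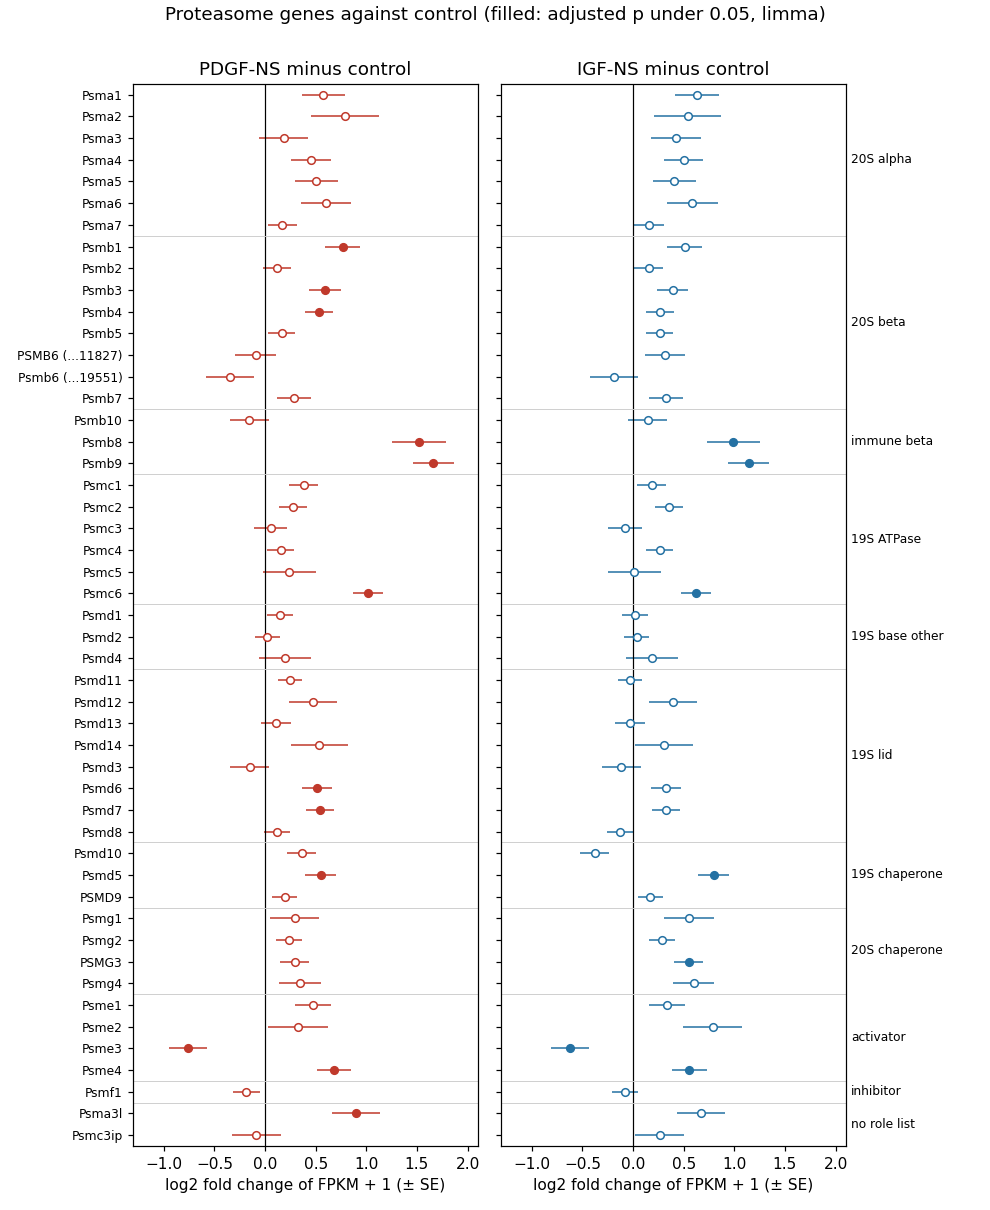
Log2 fold change (± SE, limma) of FPKM + 1 for each of the 49 members, in PDGF-NS minus control (left) and IGF-NS minus control (right), with members grouped by role. Filled points passed an adjusted p of 0.05: 12 on the left and 7 on the right, with Psme3 as the called member below 0 on either side.

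Among the immune subunits, Psmb8 and Psmb9 were higher in both treated sets than in control and Psmb10 did not pass the test in any comparison. Psmb9, which replaces Psmb6, was at 44.8, 32.4 and 42.6 FPKM in PDGF-NS, at 27.1, 22.6 and 33.3 FPKM in IGF-NS and at 14.9, 11.97 and 9.20 FPKM in control. Every treated library lay above every control library. Against control, Psmb9 changed by a log2 fold of 1.66 ± 0.20 in PDGF-NS (limma adjusted p = 0.000239) and 1.14 ± 0.20 in IGF-NS (limma adjusted p = 0.00355). These calls held under all 18 alternatives in each comparison.

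Psmb8, which replaces Psmb5, was at 7.56, 5.44 and 9.31 FPKM in PDGF-NS, at 4.46, 3.61 and 6.50 FPKM in IGF-NS and at 2.96, 1.58 and 1.35 FPKM in control. The treated libraries were again all above the control libraries. Its log2 fold change was 1.52 ± 0.26 in PDGF-NS against control (limma adjusted p = 0.00187) and 0.99 ± 0.26 in IGF-NS against control (limma adjusted p = 0.0213). The call in PDGF-NS held in each of 17 alternatives. The call in IGF-NS ended under quantile normalization (adjusted p = 0.0544, limma) and when control library 2 or 3 or IGF-NS library 1 or 3 was left out (limma adjusted p = 0.0637, 0.0702, 0.0547 and 0.0594).

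Psmb10, which replaces Psmb7, was at 9.54, 12.1 and 12.9 FPKM in PDGF-NS, at 14.4, 10.7 and 18.9 FPKM in IGF-NS and at 13.9, 12.9 and 11.8 FPKM in control. The sets overlapped. Psmb10 had a log2 fold change of -0.16 ± 0.19 in PDGF-NS against control (limma adjusted p = 0.576) and 0.14 ± 0.19 in IGF-NS against control (limma adjusted p = 0.629). Between the treated sets, PDGF-NS minus IGF-NS was 0.53 ± 0.26 for Psmb8, 0.52 ± 0.20 for Psmb9 and -0.30 ± 0.19 for Psmb10, and none was called (limma adjusted p = 0.212, 0.119 and 0.349). Without control library 1 and IGF-NS library 3 together, an alternative chosen after seeing the data, Psmb8 and Psmb9 were called higher in PDGF-NS than in IGF-NS (limma adjusted p = 0.0492 and 0.0371).

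Leukocytes carry immunoproteasomes as a rule, so their markers are set beside these values. Over 14 marker rows, the summed level was 3.14 to 12.5 FPKM in PDGF-NS, 1.60 to 4.06 FPKM in IGF-NS and 1.96 to 3.15 FPKM in control. Cd68, a lysosomal protein abundant in macrophages, was at 9.37, 1.39 and 2.13 FPKM in PDGF-NS, at 0.112, 0.784 and 0.124 FPKM in IGF-NS and at 0.378 FPKM or less in control. Cd68 was called higher in PDGF-NS than in control (1.83, limma adjusted p = 0.0150) and than in IGF-NS (1.71, limma adjusted p = 0.0351). Cd53 (0.0958 to 0.282 FPKM) and Laptm5 (0.0439 to 0.148 FPKM) were above 0 in every PDGF-NS library and listed at 0 in every IGF-NS and control library. Ptprc, which marks all leukocytes, and Tyrobp were listed at 0 in all 9 libraries. Fcer1g was at 1.15 to 2.44 FPKM in PDGF-NS, 1.07 to 2.74 FPKM in IGF-NS and 1.22 to 2.92 FPKM in control. It was not called in any comparison. Without PDGF-NS library 1, which had the most Cd68, the log2 fold change against control was 1.50 for Psmb8 and 1.57 for Psmb9 (limma adjusted p = 0.00908 and 0.00174). The PDGF-NS libraries kept in that fit had Cd68 at 1.39 and 2.13 FPKM. The part of leukocytes in the immune subunit levels was not tested.

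**Figure D3:**
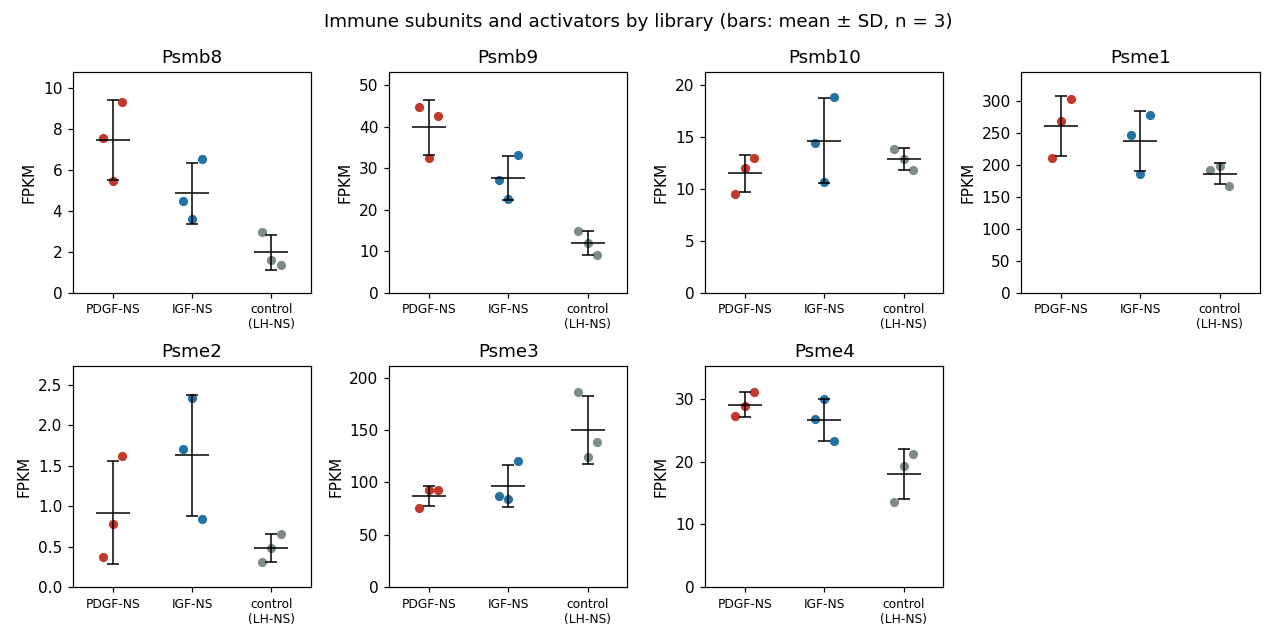
FPKM of the 3 immune subunits and the 4 activators in each library, for PDGF-NS, IGF-NS and control. Points are libraries, and bars are the mean ± SD (n = 3). Psmb8 and Psmb9 lie above control in every treated library, Psme3 lies below it in every treated library, and the Psmb10 points overlap.

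The share of each catalytic pair held by the immune subunit was taken from FPKM, which allows genes to be compared per length. Psmb9 made up 63.5%, 51.6% and 55.6% of the summed FPKM of Psmb9 and Psmb6 in PDGF-NS, 42.1%, 51.0% and 42.2% in IGF-NS and 28.3%, 21.7% and 21.1% in control. These values use the row ENSRNOG00000019551 for Psmb6, and a second Psmb6 row lowers them, as given with the ratios. Psmb8 made up 6.65% ± 1.35 of Psmb8 and Psmb5 in PDGF-NS, 4.21% ± 1.40 in IGF-NS and 2.17% ± 1.25 in control (SD, n = 3 each). Psmb10 made up 14.4% ± 2.11 of Psmb10 and Psmb7 in PDGF-NS, 16.8% ± 0.855 in IGF-NS and 18.6% ± 2.21 in control (SD, n = 3 each).

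The log2 ratio of Psmb9 to Psmb6 was 2.01 higher in PDGF-NS than in control and 1.33 higher in IGF-NS than in control. In each case the libraries did not overlap (two-sided exact permutation p = 0.1, adjusted 0.15 over 9 ratio tests). For Psmb8 and Psmb5 the log2 ratio was 1.36 higher in PDGF-NS than in control, with no overlap (exact permutation p = 0.1, adjusted 0.15), and 0.73 higher in IGF-NS than in control, with overlap (exact permutation p = 0.3, adjusted 0.3). The log2 ratio of Psmb10 to Psmb7 was 0.44 lower in PDGF-NS than in control, with no overlap (difference -0.44, exact permutation p = 0.1, adjusted 0.15). Between the treated sets, PDGF-NS minus IGF-NS was 0.63, 0.67 and -0.25 for the ratios of Psmb8, Psmb9 and Psmb10 (exact permutation p = 0.2, 0.1 and 0.1). With 3 libraries against 3, an exact test cannot go below 0.1. The symbol Psmb6 stands on 2 rows, ENSRNOG00000019551, used here, and ENSRNOG00000011827, and reads could be split between such near-identical rows. With the sum of both rows as the partner, every library had less Psmb9 than Psmb6 RNA, and Psmb9 took 37.8% ± 5.69 in PDGF-NS, 25.1% ± 3.30 in IGF-NS and 13.7% ± 4.00 in control (SD, n = 3 each).

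**Figure D4:**
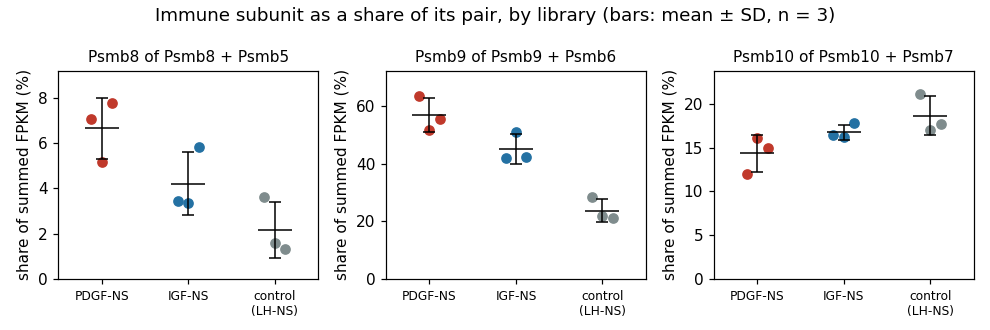
Immune subunit as a percentage of the summed FPKM of itself and its constitutive partner, in each library of PDGF-NS, IGF-NS and control. Points are libraries and bars are the mean ± SD (n = 3). Against the Psmb6 row used here, Psmb9 averages 56.9% in PDGF-NS, 45.1% in IGF-NS and 23.7% in control. With the sum of both Psmb6 rows as the partner, it averages 37.8%, 25.1% and 13.7% in the same sets.

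The activators moved in different directions. Psme4 (PA200, a large monomeric cap known from DNA repair and spermatogenesis) was at 27.3, 28.8 and 31.1 FPKM in PDGF-NS, at 26.7, 29.9 and 23.2 FPKM in IGF-NS and at 13.5, 19.4 and 21.2 FPKM in control. Its treated libraries all lay above control, with a log2 fold change of 0.68 ± 0.17 in PDGF-NS (limma adjusted p = 0.0132) and 0.55 ± 0.17 in IGF-NS (limma adjusted p = 0.0395). The PDGF-NS call ended without PDGF-NS library 3 (limma adjusted p = 0.0551). The IGF-NS call ended without control library 1 (limma adjusted p = 0.0914), without control library 2 (0.0584), without IGF-NS library 1 (0.106) or 2 (0.123), and without PDGF-NS library 1 (0.0543), 2 (0.0611) or 3 (0.0592). It also ended with no filter on low values (limma adjusted p = 0.0574), with median ratio scaling (0.132) and with quantile normalization (0.109).

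Psme3 (PA28 gamma, a nuclear activator that works without ATP) was at 75.9, 92.4 and 92.3 FPKM in PDGF-NS, at 86.9, 83.9 and 120 FPKM in IGF-NS and at 186, 124 and 139 FPKM in control. Every treated library was below every control library, and Psme3 was the called member that fell. Psme3 changed by a log2 fold of -0.76 ± 0.19 in PDGF-NS (limma adjusted p = 0.0118), a call that held in all 18 alternatives, and -0.62 ± 0.19 in IGF-NS (limma adjusted p = 0.0365). The IGF-NS call ended without control library 1 (limma adjusted p = 0.0972) or 3 (0.0633), without IGF-NS library 1 (0.123) or 2 (0.114), without PDGF-NS library 2 (0.0540) or 3 (0.0546), and with no filter on low values (0.0557). Control library 1 held the highest Psme3 level and the lowest Psme4 level of the 9 libraries.

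The partners in the PA28 ring that interferon induces differed widely in level. Psme1 averaged 261 ± 46.2 FPKM in PDGF-NS, 237 ± 46.8 FPKM in IGF-NS and 186 ± 16.3 FPKM in control (SD, n = 3 each). It was not called in either treated set (log2 fold change 0.47, limma adjusted p = 0.0714 in PDGF-NS, and 0.33, limma adjusted p = 0.205 in IGF-NS). Without IGF-NS library 2 or PDGF-NS library 1 it was called in PDGF-NS (limma adjusted p = 0.0443 and 0.0386). Psme2 was the lowest member, at 0.365, 0.778 and 1.62 FPKM in PDGF-NS, 1.71, 2.33 and 0.835 FPKM in IGF-NS and 0.311, 0.481 and 0.661 FPKM in control. Its log2 fold change was 0.33 ± 0.29 in PDGF-NS and 0.79 ± 0.29 in IGF-NS, and neither was called. Psme2 passed the minimum of 1 FPKM only through its IGF-NS level (mean 1.62 FPKM), so its difference in IGF-NS is given as a description.

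The 20S core held 15 constitutive rows. The row Psma3l, which the RefSeq table lists under Psma3, is not counted among them and was called higher in PDGF-NS. Of the 7 alpha rows counted, whose subunits form the outer rings, none was called by limma in either treated set. At an unadjusted p under 0.05, 5 were higher in PDGF-NS and 3 in IGF-NS, and 28.3% and 27% of all genes were. In IGF-NS, Psma1 was called without IGF-NS library 3 (limma adjusted p = 0.0460) or control library 2 (0.0464) or 3 (0.0485), and Psma6 without IGF-NS library 3 (0.0349). The alpha subunits' log2 fold changes ranged from 0.17 (Psma7) to 0.79 (Psma2) in PDGF-NS, with a median of 0.51, and from 0.16 to 0.63 (Psma1) in IGF-NS, with a median of 0.50. Psma1 was at 110, 94.6 and 98.9 FPKM in PDGF-NS, at 113, 114 and 89.5 FPKM in IGF-NS and at 45.8, 81.8 and 81.6 FPKM in control. Control library 1 was the lowest and the treated libraries lay above all controls. Psma2 averaged 20.002 ± 1.87 FPKM in PDGF-NS, 16.7 ± 3.01 FPKM in IGF-NS and 12.3 ± 6.15 FPKM in control, and Psma6 averaged 35.2 ± 8.59, 35.3 ± 10.3 and 22.9 ± 5.17 FPKM in the same sets (SD, n = 3 each). Psma5 averaged 71.9 ± 6.82 FPKM in PDGF-NS, 67.2 ± 8.58 FPKM in IGF-NS and 51.9 ± 15.4 FPKM in control (SD, n = 3 each). Psma3, Psma4 and Psma7 were not called either.

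Of the 8 constitutive beta rows, 3 (37.5%) were called higher in PDGF-NS, against 20.7% of all genes, and none of them was a cutting subunit. By limma 0 were called in IGF-NS, where 2 (25%) were higher at an unadjusted p under 0.05, against 27% of all genes. Psmb1, the member with the highest level in both treated sets, was at 387, 341 and 409 FPKM in PDGF-NS, at 348, 323 and 284 FPKM in IGF-NS and at 169, 257 and 252 FPKM in control. The difference from control was 0.76 ± 0.17 in PDGF-NS (limma adjusted p = 0.00810) and 0.51 ± 0.17 in IGF-NS (limma adjusted p = 0.0567). The IGF-NS difference was called under quantile normalization (0.54, limma adjusted p = 0.0392), and it was 0.35 under median ratio scaling (limma adjusted p = 0.182) and 0.32 without control library 1 (limma adjusted p = 0.132). Psmb3 was at 130, 138 and 171 FPKM in PDGF-NS, at 128, 122 and 128 FPKM in IGF-NS and at 78.2, 102 and 111 FPKM in control, with a difference of 0.59 ± 0.15 in PDGF-NS (limma adjusted p = 0.0160). Psmb4 was at 178, 188 and 224 FPKM in PDGF-NS, at 176, 137 and 178 FPKM in IGF-NS and at 136, 139 and 129 FPKM in control, with a difference of 0.53 ± 0.14 in PDGF-NS (limma adjusted p = 0.0165). These 3 subunits had every PDGF-NS library above every control library. Without PDGF-NS library 3, Psmb3 and Psmb4 were no longer called (limma adjusted p = 0.0718 and 0.0748), and without control library 3 Psmb4 was not (limma adjusted p = 0.0508).

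The cutting subunits Psmb5, Psmb6 and Psmb7 and the structural subunit Psmb2 did not pass the test in either set. Psmb5, the site of chymotrypsin-like activity, averaged 104 ± 6.21 FPKM in PDGF-NS, 111 ± 11.6 FPKM in IGF-NS and 92.7 ± 11.7 FPKM in control (SD, n = 3 each). The Psmb6 row ENSRNOG00000019551 averaged 30.1 ± 4.08 FPKM in PDGF-NS, 34.9 ± 12.2 FPKM in IGF-NS and 38.4 ± 4.43 FPKM in control (SD, n = 3 each), and its PDGF-NS libraries lay below all controls. The row spelled PSMB6 averaged 35.7 ± 4.22, 48.3 ± 12.05 and 38.5 ± 7.88 FPKM in the same sets (SD, n = 3 each), and the sum of both rows was 65.7 ± 8.30 FPKM in PDGF-NS, 83.2 ± 18.6 FPKM in IGF-NS and 76.9 ± 8.70 FPKM in control (SD, n = 3 each). Psmb7, the site of trypsin-like activity, had a log2 fold change of 0.28 ± 0.17 in PDGF-NS and 0.33 ± 0.17 in IGF-NS (limma adjusted p = 0.228 and 0.184). Without IGF-NS library 2 the IGF-NS difference was 0.50 and was called (limma adjusted p = 0.0455).

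A row named Psma3l, which the RefSeq table lists under Psma3, was called higher in PDGF-NS. It was at 74.7, 83.3 and 76.2 FPKM in PDGF-NS, at 64.1, 75.8 and 60.4 FPKM in IGF-NS and at 26.5, 45.7 and 58.1 FPKM in control. This was a log2 fold change of 0.90 ± 0.24 in PDGF-NS (limma adjusted p = 0.0165), and without PDGF-NS library 2 the call ended (limma adjusted p = 0.0561). Without control library 1 it changed by 0.59 in PDGF-NS and was still called. In IGF-NS it was not called (0.67 ± 0.24, limma adjusted p = 0.0634), except without control library 3 (limma adjusted p = 0.0204). The Psma3 row itself averaged 10.9 ± 2.22 FPKM in PDGF-NS, 13.2 ± 3.53 FPKM in IGF-NS and 9.64 ± 2.76 FPKM in control (SD, n = 3 each). Because the counting could split reads between these rows, the division between them is uncertain. Their sum was 89.0 ± 3.70 FPKM in PDGF-NS, 79.99 ± 11.4 FPKM in IGF-NS and 53.1 ± 18.6 FPKM in control (SD, n = 3 each).

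In the 19S regulatory particle, 3 of 17 subunits (17.6%) were called higher in PDGF-NS, against 20.7% of all genes, 1 (5.88%) was called higher in IGF-NS, against 17.4%, and none was called lower. Psmc6, one of the 6 ATPases of the base ring, was the clearest. It was at 23.6, 22.1 and 22.5 FPKM in PDGF-NS, at 17.5, 18.1 and 15.8 FPKM in IGF-NS and at 8.55, 11.3 and 12.9 FPKM in control. The libraries of the 3 sets did not overlap, and Psmc6 was highest in PDGF-NS. The log2 fold change against control was 1.01 ± 0.15 in PDGF-NS (limma adjusted p = 0.000712) and 0.62 ± 0.15 in IGF-NS (limma adjusted p = 0.0137). The IGF-NS call ended under median ratio scaling (limma adjusted p = 0.0572) and without IGF-NS library 1 (limma adjusted p = 0.0501). The difference of PDGF-NS from IGF-NS was 0.39 ± 0.15 (limma adjusted p = 0.105), and it was called without control library 1 (limma adjusted p = 0.0397).

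The other ATPases, which share the ring with Psmc6, did not pass the test. Psmc1 averaged 90.1 ± 13.9 FPKM in PDGF-NS, 78.1 ± 3.32 FPKM in IGF-NS and 68.9 ± 9.00 FPKM in control (SD, n = 3 each). Psmc2 averaged 49.8 ± 5.90 FPKM in PDGF-NS, 52.8 ± 6.93 FPKM in IGF-NS and 40.9 ± 3.02 FPKM in control (SD, n = 3 each). Psmc4 had the highest level of the particle, 140 ± 19.3 FPKM in PDGF-NS, 151 ± 11.2 FPKM in IGF-NS and 126 ± 9.32 FPKM in control (SD, n = 3 each). Psmc3 and Psmc5 differed by 0.06 and 0.24 in PDGF-NS on the log2 scale, and by -0.08 and 0.01 in IGF-NS. The scaffold subunits Psmd1 and Psmd2 and the ubiquitin receptor Psmd4 had log2 fold changes of 0.02 to 0.20 in PDGF-NS and 0.02 to 0.19 in IGF-NS. None of these 3 was called by limma, and 0 of 3 reached an unadjusted p under 0.05.

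The lid holds the enzyme that strips ubiquitin from substrates. Of its 8 subunits, 2 (25%) were called higher in PDGF-NS, against 20.7% of all genes. By limma 0 were called in IGF-NS, where 17.4% of all genes were called higher. At an unadjusted p under 0.05, 1 was higher in IGF-NS, against 27% of all genes. Psmd7, the partner of that enzyme, was at 44.3, 48.3 and 52.1 FPKM in PDGF-NS, at 40.4, 36.2 and 48.1 FPKM in IGF-NS and at 29.2, 33.6 and 35.6 FPKM in control. Psmd6 was at 66.9, 72.8 and 76.7 FPKM in PDGF-NS, at 65.2, 67.9 and 56.8 FPKM in IGF-NS and at 40.9, 53.7 and 58.1 FPKM in control. In both genes all PDGF-NS libraries were above all control libraries. The log2 fold change in PDGF-NS was 0.54 ± 0.14 for Psmd7 and 0.51 ± 0.15 for Psmd6 (limma adjusted p = 0.0144 and 0.0256). Without PDGF-NS library 3 neither was called (limma adjusted p = 0.0637 for Psmd7 and 0.0937 for Psmd6). The Psmd6 call also ended without control library 1 (limma adjusted p = 0.0620) or PDGF-NS library 2 (0.0711) and under median ratio scaling (0.0796), one common sum (0.0882) and quantile normalization (0.0931).

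Psmd14, the deubiquitinating enzyme of the lid, averaged 39.5 ± 9.66 FPKM in PDGF-NS, 33.0 ± 4.79 FPKM in IGF-NS and 27.8 ± 10.7 FPKM in control (SD, n = 3 each), and the sets overlapped. Psmd12 averaged 26.1 ± 3.53 FPKM in PDGF-NS, 24.8 ± 5.13 FPKM in IGF-NS and 19.02 ± 6.01 FPKM in control (SD, n = 3 each). Psmd3, Psmd8, Psmd11 and Psmd13 had log2 fold changes of -0.15 to 0.24 in PDGF-NS and -0.13 to -0.03 in IGF-NS, and none was called. Psmd3 had the lowest fold change of the particle in PDGF-NS, with 41.2 ± 4.72 FPKM in PDGF-NS, 43.3 ± 12.7 FPKM in IGF-NS and 45.9 ± 5.31 FPKM in control (SD, n = 3 each).

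Among the chaperones that assemble the 19S base, Psmd5 was called higher in both treated sets. It was at 33.5, 36.2 and 35.8 FPKM in PDGF-NS, at 44.1, 44.2 and 37.6 FPKM in IGF-NS and at 18.9, 24.2 and 29.1 FPKM in control. Every treated library lay above every control library, and every PDGF-NS library lay below every IGF-NS library. The log2 fold change was 0.55 ± 0.16 in PDGF-NS (limma adjusted p = 0.0233) and 0.79 ± 0.16 in IGF-NS (limma adjusted p = 0.00564). The IGF-NS call held in all 18 alternatives. The PDGF-NS call ended without control library 1 (limma adjusted p = 0.0563) or 2 (0.0531), without PDGF-NS library 2 (0.0710) or 3 (0.0745), and under median ratio scaling (0.0705), one common sum (0.0769) and quantile normalization (0.0733).

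Psmd10 (gankyrin, a base chaperone also known as an oncoprotein that binds the retinoblastoma protein) was the member that differed between the treated sets. It was at 4.36, 3.92 and 4.34 FPKM in PDGF-NS, at 2.36, 1.93 and 2.08 FPKM in IGF-NS and at 2.75, 3.23 and 3.19 FPKM in control. The 3 sets did not overlap, with PDGF-NS above control and IGF-NS below it. PDGF-NS minus IGF-NS was 0.74 ± 0.14 (limma adjusted p = 0.00658). Between the treated sets 1 of 49 members was called, in a comparison that called 15.9% of all genes. It was higher, against 8.33% of all genes, and 0 members were lower by limma, against 7.55%. At an unadjusted p under 0.05, 4 were higher and 0 lower, against 14.5% and 15% of all genes. Against control, Psmd10 was not called in PDGF-NS (0.36 ± 0.14, limma adjusted p = 0.0827) or in IGF-NS (-0.38 ± 0.14, limma adjusted p = 0.0823). In IGF-NS it was called lower under median ratio scaling (limma adjusted p = 0.0348) and quantile normalization (0.0222). PSMD9, the third base chaperone, averaged 45.7 ± 3.75 FPKM in PDGF-NS, 44.9 ± 4.48 FPKM in IGF-NS and 39.8 ± 3.06 FPKM in control (SD, n = 3 each).

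The chaperones of the 20S core, Psmg1 to Psmg4, had log2 fold changes of 0.23 to 0.34 in PDGF-NS and 0.28 to 0.60 in IGF-NS. PSMG3 was the called one, in IGF-NS, at 32.1, 28.4 and 32.3 FPKM in PDGF-NS, 42.1, 36.9 and 32.9 FPKM in IGF-NS and 21.1, 28.5 and 26.0 FPKM in control. Its IGF-NS libraries were above those of both other sets. The log2 fold change in IGF-NS was 0.55 ± 0.15 (limma adjusted p = 0.0210). This call ended without control library 1 (limma adjusted p = 0.0541), without IGF-NS library 1 (0.0881) or 2 (0.0530), with median ratio scaling (0.0829) and with quantile normalization (0.0661). Psmg4 averaged 41.9 ± 6.22 FPKM in PDGF-NS, 49.9 ± 2.60 FPKM in IGF-NS and 33.6 ± 10.0 FPKM in control (SD, n = 3 each; limma adjusted p = 0.0563 in IGF-NS), and it was called in IGF-NS without control library 2 (limma adjusted p = 0.0201). Psmg1 averaged 31.6 ± 2.89 FPKM in PDGF-NS, 38.7 ± 9.07 FPKM in IGF-NS and 26.5 ± 8.12 FPKM in control, and Psmg2 averaged 28.6 ± 1.06, 29.7 ± 3.02 and 24.3 ± 3.11 FPKM in the same sets (SD, n = 3 each). Psmg1 was called in IGF-NS without IGF-NS library 3 (limma adjusted p = 0.0464).

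Psmf1 (PI31, a core-binding protein first described as an inhibitor) averaged 63.8 ± 4.96 FPKM in PDGF-NS, 68.8 ± 7.74 FPKM in IGF-NS and 72.7 ± 6.58 FPKM in control (SD, n = 3 each) and was not called. Psmc3ip matches the symbol pattern but encodes a recombination protein and no proteasome subunit. It averaged 4.94 ± 0.983 FPKM in PDGF-NS, 6.64 ± 1.77 FPKM in IGF-NS and 5.40 ± 1.79 FPKM in control (SD, n = 3 each).

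**Figure D5:**
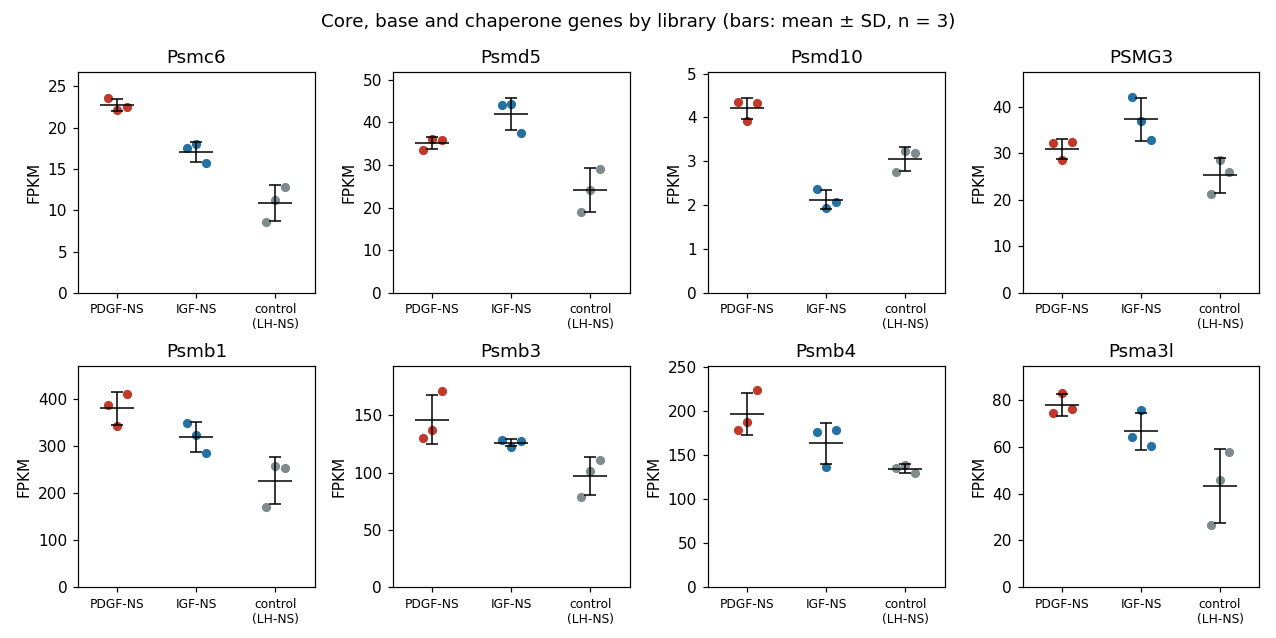
FPKM in each library of PDGF-NS, IGF-NS and control for the ATPase Psmc6, the chaperones Psmd5, Psmd10 and PSMG3, the core subunits Psmb1, Psmb3 and Psmb4, and the row Psma3l. Points are libraries and bars are the mean ± SD (n = 3). Psmd10 averages 4.20 FPKM in PDGF-NS, 2.12 FPKM in IGF-NS and 3.06 FPKM in control.

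Levels within the complex were far from equal per unit of length. Across the 15 constitutive core rows, set means ran from 10.9 (Psma3) to 379 (Psmb1) FPKM in PDGF-NS, from 13.2 (Psma3) to 318 (Psmb1) FPKM in IGF-NS and from 9.64 (Psma3) to 232 (Psmb2) FPKM in control. The division of reads between Psma3 and Psma3l, a row not counted here, is uncertain. Their sum was 89.0, 79.99 and 53.1 FPKM in the same sets. The next lowest core row was Psma2, at 20.002, 16.7 and 12.3 FPKM. Across the 17 regulatory particle subunits the range was narrower, 21.2 (Psmd4) to 140 (Psmc4) FPKM in PDGF-NS, 17.1 (Psmc6) to 151 (Psmc4) FPKM in IGF-NS and 10.9 (Psmc6) to 126 (Psmc4) FPKM in control. Psmd4 was the lowest subunit of the particle in PDGF-NS, and Psmc6 was the lowest in IGF-NS and in control. Without Psma3l, the summed core was 1569 ± 123 FPKM in PDGF-NS, 1488 ± 84.2 FPKM in IGF-NS and 1183 ± 195 FPKM in control (SD, n = 3 each). The summed particle was 913 ± 95.7 FPKM in PDGF-NS, 850 ± 52.6 FPKM in IGF-NS and 775 ± 76.9 FPKM in control (SD, n = 3 each).

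Of 14 tested genes whose products bind or complete the proteasome under other names, 3 (21.4%) were called higher and 1 lower in PDGF-NS, and 2 (14.3%) higher and 0 lower in IGF-NS. Of all genes, 20.7% and 17.4% were called higher in these comparisons, and 10.2% and 7.48% lower. Usp14, a deubiquitinating enzyme that docks on the 19S base, was at 34.3, 30.8 and 38.3 FPKM in PDGF-NS, at 27.3, 36.3 and 27.6 FPKM in IGF-NS and at 11.3, 17.3 and 18.7 FPKM in control. The treated libraries were all above control. The log2 fold change was 1.11 ± 0.19 in PDGF-NS and 0.92 ± 0.19 in IGF-NS (limma adjusted p = 0.00204 and 0.00785). Uchl5, the other deubiquitinating enzyme that docks there, differed by 0.60 and 0.61 (limma adjusted p = 0.0183 and 0.0210). Zfand2a, a stress-induced protein that binds the 19S particle, was called in PDGF-NS (0.65 ± 0.13, limma adjusted p = 0.00527) and differed by -0.09 in IGF-NS (limma adjusted p = 0.654). Ubqln4, a shuttle that carries ubiquitinated proteins, fell by 0.60 in PDGF-NS (limma adjusted p = 0.0379).

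NFE2L1 is the factor known to induce proteasome genes when the proteasome is inhibited. It averaged 53.8 FPKM in PDGF-NS, 48.1 FPKM in IGF-NS and 48.0 FPKM in control and was not called, and it is named here after its values were seen. A list of 9 genes for its activation included NFE2L1 itself and its relative Nfe2l2. Of the 9, 1 (11.1%) was called higher and 1 lower in PDGF-NS, and 2 (22.2%) higher and 1 lower in IGF-NS. Over all genes tested, 20.7% were called higher and 10.2% lower in PDGF-NS, and 17.4% higher and 7.48% lower in IGF-NS. Nfe2l2, the relative of NFE2L1 in the oxidative stress response, was the 1 gene of this list called higher in PDGF-NS. It was called higher in IGF-NS too. Nfe2l2 was at 285, 303 and 305 FPKM in PDGF-NS, at 244, 257 and 201 FPKM in IGF-NS and at 107, 151 and 131 FPKM in control. Its log2 fold change was 1.21 ± 0.15 in PDGF-NS and 0.85 ± 0.15 in IGF-NS (limma adjusted p = 0.000254 and 0.00333). Mafk, a small Maf partner of both factors, changed by -1.26 and -1.55 (limma adjusted p = 0.000556 and 0.000331). Ngly1, the glycanase that processes NFE2L1, was called in IGF-NS (0.67 ± 0.17, limma adjusted p = 0.0156). Mafg, another small Maf, was not called in either set (-0.19 in PDGF-NS and -0.48 in IGF-NS, limma adjusted p = 0.570 and 0.159).

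Of 6 tested rows for ubiquitin and its activating enzymes, 3 were called higher in PDGF-NS (50%, against 20.7% of all genes) and 2 in IGF-NS (33.3%, against 17.4%). The row Rps27a, a fusion of ubiquitin with a ribosomal protein, changed by 1.41 ± 0.20 in PDGF-NS and 0.86 ± 0.20 in IGF-NS (limma adjusted p = 0.000539 and 0.0111). A second row spelled RPS27A was far higher in level, at 564 FPKM in PDGF-NS, 543 FPKM in IGF-NS and 403 FPKM in control, and was not called, so the division between these rows is uncertain. Uba6, an activating enzyme, changed by 0.56 ± 0.14 and 0.52 ± 0.14 (limma adjusted p = 0.0138 and 0.0237).

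Among 22 tested genes of MHC class I antigen processing and interferon signalling, 7 were called higher in PDGF-NS (31.8%, against 20.7% of all genes) and 5 in IGF-NS (22.7%, against 17.4%), and none was called lower. Tap1, the peptide transporter gene between Psmb8 and Psmb9, was at 13.3, 17.3 and 16.6 FPKM in PDGF-NS, at 7.50, 6.48 and 9.53 FPKM in IGF-NS and at 8.23, 5.14 and 5.71 FPKM in control. It was high in PDGF-NS, and the IGF-NS and control libraries overlapped. Its log2 fold change was 1.20 ± 0.19 in PDGF-NS against control (limma adjusted p = 0.00125), 0.27 ± 0.19 in IGF-NS against control (limma adjusted p = 0.337) and 0.93 ± 0.19 in PDGF-NS against IGF-NS (limma adjusted p = 0.00951). Tap2, which pairs with Tap1 in the transporter, was at 9.35, 9.41 and 10.5 FPKM in PDGF-NS, at 6.47, 3.74 and 6.59 FPKM in IGF-NS and at 7.22, 5.79 and 4.96 FPKM in control. It was called higher in PDGF-NS than in control (0.63 ± 0.20, limma adjusted p = 0.0378) and than in IGF-NS (0.73, limma adjusted p = 0.0340), and its IGF-NS difference from control was -0.10 (limma adjusted p = 0.746). Stat2 and Irf9, which act together at the interferon-stimulated response element, were called in PDGF-NS (1.01 and 0.91, limma adjusted p = 0.00331 and 0.00222) and not in IGF-NS (0.55 and 0.30, limma adjusted p = 0.0615 and 0.212). Irf9 differed between the treated sets by 0.62 (limma adjusted p = 0.0285), and Stat2 did not pass that test (0.46, limma adjusted p = 0.149).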

How the data were processed

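Total RNA of 9 S31 cell samples was extracted with Trizol and made into libraries with Lexogen's SENSE mRNA kit (v2), per the labels' protocols. The submitters' processing notes name GSNAP and Cufflinks. Tool versions, build and annotation: not given in the sources used here. Each deposited value is an FPKM of a gene in a library, made by the authors, and read numbers are not known. Columns were matched to samples through the sample records.

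Of 26407 rows, 4 genes with a failed value of 999999999 in 10 cells and 2 duplicated all-zero rows were left out. A listed 0 can be a failed estimate. The test covered 11376 genes whose mean reached 1 FPKM. It used limma 3.58.1 (R 4.3.3) and log2(FPKM + 1), in one fit of 9 libraries with a variance trend and 3 two-sided contrasts. Fold changes on this scale understate those of low genes. Ratios were tested with exact permutation tests in scipy 1.17.1. The limma step was tested on simulated data. The members and the gene lists were chosen with earlier results of these data known. Named genes were all immune subunits and activators, up to 4 members of each other list by largest change, and members that were not called or went against their list's majority. Genes outside this rule are marked in the text. Some listed genes are not reported here. Promoter sequences are those of RefSeq, build GRCr8, matched by symbol, and its assembly need not be the one the authors used. Alternatives were the pseudocount (0.1 or 0.5), the filter (none, or a mean of 5 FPKM), 3 scalings, the replicate number as a block and each library left out. Same-numbered libraries did not deviate together, so no pairing was assumed.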

Additional observations from a re-analysis of the deposited data

Results flagged for a closer look

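Psmd10 (ENSRNOG00000046398) is listed here because its level differed between the treated sets by the test of that difference itself. PDGF-NS minus IGF-NS was 0.74 on the log2 scale (limma adjusted p = 0.00658), with 4.20 ± 0.248 FPKM in PDGF-NS, 2.12 ± 0.218 FPKM in IGF-NS and 3.06 ± 0.270 FPKM in control (SD, n = 3 each). The difference was 0.69 to 0.79 with any 1 library left out and was called in each of 17 alternatives. It could not be computed with a filter at a mean of 5 FPKM, which removes the gene. The sets also differ in harvest time by record, 24 h for PDGF-NS and 48 h for IGF-NS, and growth factor and time cannot be told apart.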

How the results depend on the processing

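No called member reversed its direction under any alternative. For members called lower in IGF-NS against control (1, Psme3), the count was 0 with no filter on low values and with the replicate block, and 2 under median ratio scaling and quantile normalization, where Psmd10 was also called. For members called higher in IGF-NS (6), it was 3 under median ratio scaling. For members called higher in PDGF-NS against IGF-NS (1), it was 0 with a filter at a mean of 5 FPKM, and 3 without control library 1 and IGF-NS library 3 together, chosen after seeing the data, where 1 (Psmg1) was called lower. With 1 library left out, the counts ranged from 5 to 12 higher and 1 lower in PDGF-NS against control, 2 to 9 higher and 0 to 1 lower in IGF-NS against control, and 1 to 2 higher and 0 lower between the treated sets. The causes were not tested, apart from the filter at 5 FPKM, which removes Psmd10.

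Same-numbered libraries of different sets correlated in their deviations with r from -0.412 to 0.342, 2 of 9 pairs above 0.1. For 0 of 9 libraries was the own number the best match in both other sets. Control library 2 had its highest r with IGF-NS library 2 (0.342), and IGF-NS library 1 had its highest with control library 1 (0.229). With the replicate block, Psme3 and Psme4 lost their calls in IGF-NS (limma adjusted p = 0.0582 and 0.0519) and no other call of a member changed. Against control, the median of all genes fell by 0.12 to 0.14 in each comparison under median ratio scaling and quantile normalization, and by 0.13 in PDGF-NS and 0.01 in IGF-NS with one common sum. That sum also lowered the median of PDGF-NS against IGF-NS by 0.12 and took the share of all calls that were higher to 33.2%, against 52.5%. Genes at low FPKM rest on few reads of unknown number.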
